A study of Mus musculus with 15 samples.

Results

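The genes described are 33 that encode the enzymes, carriers and regulators by which cells burn fatty acids and make or use ketone bodies, chosen by name from the pathway. A gene was counted as measured where a probe set of the array was annotated to exactly 1 gene and that gene was in the list, and the brightest such probe set, by its mean over the arrays, was taken where there were several. This gave 31 genes, from 59 probe sets, of 18193 genes in all, and Acsl1 and Cpt1b were not analysed here. RNA from the whole aorta of male C57BL/6 mice aged 9 weeks was measured on expression arrays, with 1 array per mouse and 15 arrays in all. The gene of apolipoprotein E (Apoe), which clears lipoproteins from blood, was deleted in every group, and in the Apoe/RAGE null groups so was Ager, which encodes RAGE, a receptor that binds glycated proteins and other ligands. The groups were 4 diabetic Apoe/RAGE null, 3 non-diabetic Apoe/RAGE null, 4 diabetic Apoe null and 4 non-diabetic Apoe null aortas. Diabetic mice had received 5 daily injections of streptozotocin at 65 mg/kg from 6 weeks of age, a compound toxic to the insulin-making beta cells, and non-diabetic mice had received citrate buffer. Since the Apoe/RAGE null mice were provided by a research laboratory and the Apoe null mice by a commercial breeder, genotype and source cannot be told apart.

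Long-chain fatty acids enter mitochondria as carnitine esters. Inside, fatty acids are shortened by repeated rounds of oxidation, hydration, a further oxidation and thiolysis, with the electrons passed to the respiratory chain. Peroxisomes shorten chains that mitochondria handle poorly, thioesterases release free fatty acids from their CoA esters, and the nuclear receptor PPAR alpha switches on many genes of the pathway. Ketone bodies are made mainly in liver, and heart, muscle and other tissues use them as fuel. Insulin restrains fatty acid release and oxidation, and the fat around the rodent aorta, part of it brown, is rich in the same enzymes.

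Promoter windows of 300 bases, from 250 before to 50 after the start site (RefSeq, GRCm38.p6), were found for 25 of the 31 genes, in 26 windows. The first 3 windows printed belong to the only genes of the list whose difference passed the test described further on. These are Acot1 (chr12:84009252-84009551, plus strand) and Bdh1, which has 2 windows (chr16:31422047-31422346 and chr16:31428503-31428802, plus strand).
Acot1: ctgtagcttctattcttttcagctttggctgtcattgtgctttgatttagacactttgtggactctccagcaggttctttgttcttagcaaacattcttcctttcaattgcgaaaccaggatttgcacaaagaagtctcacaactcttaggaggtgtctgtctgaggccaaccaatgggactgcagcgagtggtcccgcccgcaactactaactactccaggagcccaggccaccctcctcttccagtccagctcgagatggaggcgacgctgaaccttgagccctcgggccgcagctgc
Bdh1 first window: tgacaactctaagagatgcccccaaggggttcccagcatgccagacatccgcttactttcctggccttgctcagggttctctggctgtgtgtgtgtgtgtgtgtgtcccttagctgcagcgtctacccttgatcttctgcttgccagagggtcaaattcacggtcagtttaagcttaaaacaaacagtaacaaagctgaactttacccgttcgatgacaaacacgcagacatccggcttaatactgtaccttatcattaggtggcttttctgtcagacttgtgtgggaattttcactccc
Bdh1 second window: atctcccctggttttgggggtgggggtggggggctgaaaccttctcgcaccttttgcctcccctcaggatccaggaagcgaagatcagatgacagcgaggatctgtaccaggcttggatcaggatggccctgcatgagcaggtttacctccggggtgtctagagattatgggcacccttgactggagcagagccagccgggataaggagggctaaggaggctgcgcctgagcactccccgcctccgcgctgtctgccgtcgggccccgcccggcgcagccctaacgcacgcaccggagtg

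The genes of both subunits of the mitochondrial trifunctional protein, Hadha and Hadhb, lie head to head with 273 bases between their start sites, so that their windows share 228 bases. The Hadhb window is shown because it covers most of the stretch between these genes (chr5:30155003-30155302, plus strand).
Hadhb: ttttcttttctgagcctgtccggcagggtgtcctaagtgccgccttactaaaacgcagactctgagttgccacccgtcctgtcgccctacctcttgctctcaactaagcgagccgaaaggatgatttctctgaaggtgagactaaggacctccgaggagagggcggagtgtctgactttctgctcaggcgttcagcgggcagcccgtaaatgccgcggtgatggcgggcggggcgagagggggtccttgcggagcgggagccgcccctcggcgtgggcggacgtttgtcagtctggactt

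The windows were searched on both strands for a direct repeat, AGGTCANAGGTCA, the form bound by PPAR alpha with its partner RXR. With no mismatch it was in 0 of the 26 windows, against 13 of 32851 windows of all genes (0.0396%). With at most 2 mismatches it was in 3 of the 26 windows (11.5%), against 1268 of all windows (3.86%). These 3 are printed with the match in capitals: Slc25a20 (chr9:108661886-108662185, plus strand, match from position 7), Etfa (chr9:55512194-55512493, minus strand, match on the opposite strand from position -77) and Echs1 (chr7:140116372-140116671, minus strand, match from position -83).
Slc25a20: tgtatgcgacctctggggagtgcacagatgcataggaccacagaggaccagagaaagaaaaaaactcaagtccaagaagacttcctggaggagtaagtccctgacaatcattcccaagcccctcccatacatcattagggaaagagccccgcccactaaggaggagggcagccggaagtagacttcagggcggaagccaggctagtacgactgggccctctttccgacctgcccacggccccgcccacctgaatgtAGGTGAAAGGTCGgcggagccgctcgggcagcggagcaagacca
Etfa: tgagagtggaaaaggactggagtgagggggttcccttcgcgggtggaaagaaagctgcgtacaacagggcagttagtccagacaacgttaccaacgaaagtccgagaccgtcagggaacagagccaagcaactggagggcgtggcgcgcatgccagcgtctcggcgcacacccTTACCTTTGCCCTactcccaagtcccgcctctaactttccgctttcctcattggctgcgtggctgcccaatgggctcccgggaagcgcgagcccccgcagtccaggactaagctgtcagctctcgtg
Echs1: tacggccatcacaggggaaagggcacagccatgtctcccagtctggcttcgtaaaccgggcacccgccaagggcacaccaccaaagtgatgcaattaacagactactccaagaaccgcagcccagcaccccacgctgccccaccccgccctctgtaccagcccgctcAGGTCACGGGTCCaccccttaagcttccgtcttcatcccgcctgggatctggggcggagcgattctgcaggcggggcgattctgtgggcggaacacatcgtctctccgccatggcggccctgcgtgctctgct

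The letters TCAAGGTCA, bound by ERR receptors, overlap the half-site of the repeat and were in 0 of the 26 windows, against 139 of all windows (0.423%). The letters CCGGAAG, bound by ETS factors, were in the windows of Cpt2 and Slc25a20 (7.69%), against 2910 of all windows (8.86%). A match describes letters only, and the 2 genes that passed the test held none of these motifs in their windows.

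The medians of the 15 arrays lay between 4.35 and 4.42 (log2), and precision is limited by how few arrays there were. Smooth muscle genes were bright in all groups, among them Acta2, smooth muscle actin, at 13.2 to 13.4 (log2). Of the defining genes of hepatocytes, Ttr and Apoa1 were near the array medians at 4.36 to 4.85 and 3.60 to 4.29. Alb, which encodes albumin, was above them on some arrays, at 4.13 to 6.90 in diabetic Apoe/RAGE null, 4.48 to 5.56 in non-diabetic Apoe/RAGE null, 4.51 to 6.30 in diabetic Apoe null and 4.44 to 5.48 in non-diabetic Apoe null arrays. The summed linear level of the 7 measured hepatocyte genes was 3044 to 4223 and 3137 to 3693 in diabetic and non-diabetic Apoe/RAGE null arrays. In diabetic and non-diabetic Apoe null arrays it was 2263 to 4168 and 2762 to 3888. The list thus held genes brighter than those named. Brown fat genes were bright as well, with Ucp1, the uncoupling protein of brown fat, between 10.5 and 12.3. In a whole tissue, fewer cells of a type and less RNA per cell cannot be told apart. In Decr2, a peroxisomal reductase gene on the chromosome of Ager (17), replicates 9 and 10 of the diabetic Apoe/RAGE null group read 5.19 and 5.10 and replicates 11 and 12 read 7.40 and 7.56. The non-diabetic Apoe/RAGE null arrays lay between 6.84 and 6.98 and the 8 Apoe null arrays between 5.32 and 6.01. Replicates 9 and 10 thus lay below both ranges, nearer to that of the other genotype. This rests on Decr2 alone, and its cause was not tested. In the comparisons that use the diabetic Apoe/RAGE null group, the counts, the medians and the genes with the smallest p are therefore given with and without them, and the other single values with all arrays. Eci1 and Angptl4 are the 2 measured genes of the list on the same chromosome.

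**Figure D1:**
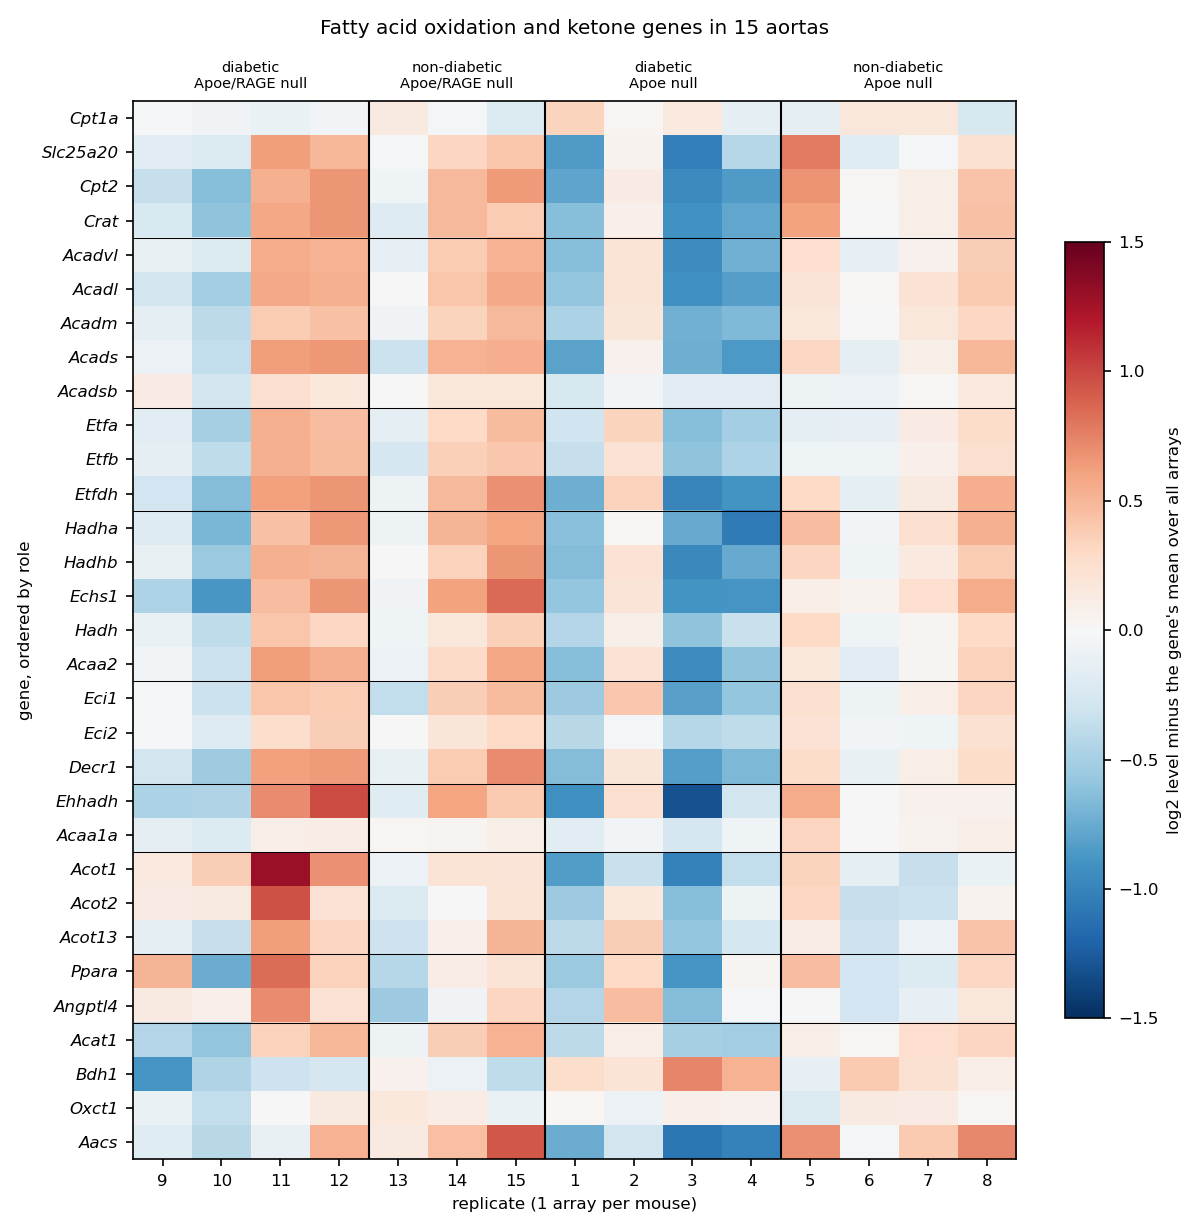
Level of each of the 31 genes (rows, ordered by role) on each of the 15 arrays (columns, by group), as the log2 level minus the gene's own mean over all arrays. Diabetic Apoe null replicates 1, 3 and 4 are low for most genes, replicate 2 is not, and diabetic Apoe/RAGE null replicates 9 and 10 are lower than 11 and 12 for 29 of the 31 genes.

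Most of the genes varied together from array to array. As a summary, the median over the 31 genes of the deviation from each gene's own mean was taken for each array. It was -0.13, -0.38, 0.54 and 0.49 in diabetic Apoe/RAGE null replicates 9 to 12 and -0.08, 0.33 and 0.47 in non-diabetic Apoe/RAGE null replicates 13 to 15. It was -0.56, 0.18, -0.76 and -0.51 in diabetic Apoe null replicates 1 to 4 and 0.25, -0.06, 0.09 and 0.31 in non-diabetic Apoe null replicates 5 to 8. Both diabetic groups were split, and in the non-diabetic groups single arrays stood low as well. Replicate 13 was the lowest of the non-diabetic Apoe/RAGE null group for 28 of the 31 genes. Replicate 6 was the lowest of the non-diabetic Apoe null group for 24. In the diabetic Apoe null group replicates 1, 3 and 4 were all below the lowest non-diabetic Apoe null array for 24 of the 31 genes, and replicate 2 was the highest of its group for 28 genes. In the diabetic Apoe/RAGE null group replicates 11 and 12 were both above replicates 9 and 10 for 29 genes, with Cpt1a and Ppara as exceptions. Replicates 11 and 12 were both above every diabetic Apoe null array for 25 genes, and replicates 9 and 10 for 1, Acot1.

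Diabetic Apoe null aortas were first set against non-diabetic Apoe null aortas. Genes of every oxidation step were lower on average in diabetic mice, from the carnitine shuttle to thiolysis, and the most negative fold change was that of Aacs, a ketone body gene. Of the 31 genes 28 had negative fold changes, and the median log2 fold change was -0.58, beside -0.00 over all genes. None passed limma with Benjamini-Hochberg adjustment over all 45037 probe sets, where 0% of the probe sets passed. At an unadjusted p under 0.05, 19 of the 31 genes were lower, where 5.94% of all genes were. Groups did not overlap, with the diabetic arrays lower, for 2 of the 31 genes (Aacs and Acaa1a), where this held for 3.10% of all genes. The count of 19 was 12 when diabetic replicate 1 or non-diabetic replicate 5 was left out and 7 when diabetic replicate 3 was, and over the fits without 1 array 7.68% to 16.9% of all genes passed, in either direction. The count of 2 was 24 when diabetic replicate 2 was left out, where the groups then did not overlap for 18.9% of all genes, and 6 when non-diabetic replicate 6 was, where this held for 12.0%. The count of 6 of 31 is near that share and is no result about these genes.

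Of the carnitine shuttle, Cpt2 is the inner-membrane transferase that turns carnitine esters back into CoA esters. Its level was 8.88, 9.80, 8.72 and 8.83 (log2) in diabetic Apoe null aortas, against 10.36, 9.69, 9.77 and 10.10 in non-diabetic Apoe null aortas. Diabetic replicate 2 lay within the non-diabetic range and the other 3 diabetic arrays below it. The log2 fold change was -0.92 ± 0.30 (SE), or 1.89-fold lower, with an adjusted p of 0.354 in limma. Crat, carnitine acetyltransferase, had -0.85 ± 0.28 and Slc25a20, the carnitine-acylcarnitine carrier of the inner membrane, -0.76 ± 0.26. Cpt1a, the liver form of the outer-membrane transferase that controls entry, did not share this: it averaged 8.34 ± 0.20 in diabetic and 8.24 ± 0.21 in non-diabetic aortas (SD, n = 4 each).

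All 5 acyl-CoA dehydrogenases, which take the first electrons from the chain, had negative fold changes. Acads, for short chains, had -0.77 ± 0.27 (SE), Acadl, for long chains, -0.73 ± 0.26, Acadvl, for very long chains, -0.66 ± 0.24, and Acadm, for medium chains, -0.58 ± 0.21. Acadsb, which acts on short branched chains from amino acids, had the smallest, -0.15 ± 0.11. Of the flavoproteins that hand the electrons to ubiquinone, the dehydrogenase Etfdh had -0.78 ± 0.33, and the subunits Etfa and Etfb had -0.31 ± 0.24 and -0.34 ± 0.22.

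Hadha, the subunit of the trifunctional protein with hydratase and dehydrogenase activity, read 9.54, 10.18, 9.40 and 9.10 in diabetic Apoe null aortas, against 10.63, 10.12, 10.40 and 10.69 in non-diabetic Apoe null aortas. Diabetic replicate 2 was again inside the range of the non-diabetic arrays, and the other diabetic arrays were below it. The log2 fold change was -0.90 ± 0.28 (SE), 1.87-fold lower, with an adjusted p of 0.347 in limma. Hadhb, the thiolase subunit encoded next to it, had -0.74 ± 0.27, and Echs1, the hydratase for short chains, -0.78 ± 0.33. Acaa2, the mitochondrial thiolase, had -0.59 ± 0.25, and Hadh, the dehydrogenase for shorter hydroxyacyl chains, -0.47 ± 0.18.

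Among the enzymes for unsaturated chains, Decr1, the mitochondrial dienoyl-CoA reductase, had -0.63 ± 0.28, Eci1, an isomerase that shifts double bonds, -0.53 ± 0.25, and its relative Eci2 -0.40 ± 0.13 (log2, SE). Of the peroxisomal pair, Ehhadh, the bifunctional enzyme, had -0.74 ± 0.36. Acaa1a, the peroxisomal thiolase, had a smaller difference, -0.26 ± 0.09, but its diabetic arrays (6.92 to 7.13) lay wholly below the non-diabetic ones (7.18 to 7.50). The cytosolic thioesterase Acot1 had -0.58 ± 0.23, while its mitochondrial relative Acot2 and the thioesterase Acot13 had -0.20 ± 0.22 and -0.25 ± 0.25. Ppara, the regulator named above, had -0.35 ± 0.32 and Angptl4, a secreted inhibitor of lipoprotein lipase and a PPAR target, -0.10 ± 0.23.

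Among the ketone body enzymes Aacs stood apart. It encodes the cytosolic ligase that activates acetoacetate for the synthesis of lipids. It read 6.86, 7.33, 6.52 and 6.59 in diabetic Apoe null aortas, against 8.29, 7.58, 7.99 and 8.33 in non-diabetic Apoe null aortas, and the groups did not overlap. The log2 fold change was -1.22 ± 0.24 (SE), or 2.33-fold lower, with an adjusted p of 0.222 in limma. Aacs was the only gene of the list with log odds (B) above 0, the threshold the submitters used. Of all 18193 genes 43 had B above 0. A second probe set of Aacs gave -1.13 ± 0.21, and another, dim one with a mean of 3.27 gave -0.07 ± 0.10. Acat1, the mitochondrial thiolase that joins or splits acetoacetyl-CoA, had -0.50 ± 0.23. Oxct1, the transferase by which tissues use ketone bodies, had 0.00 ± 0.11, and Bdh1, the mitochondrial hydroxybutyrate dehydrogenase, 0.28 ± 0.16.

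**Figure D2:**
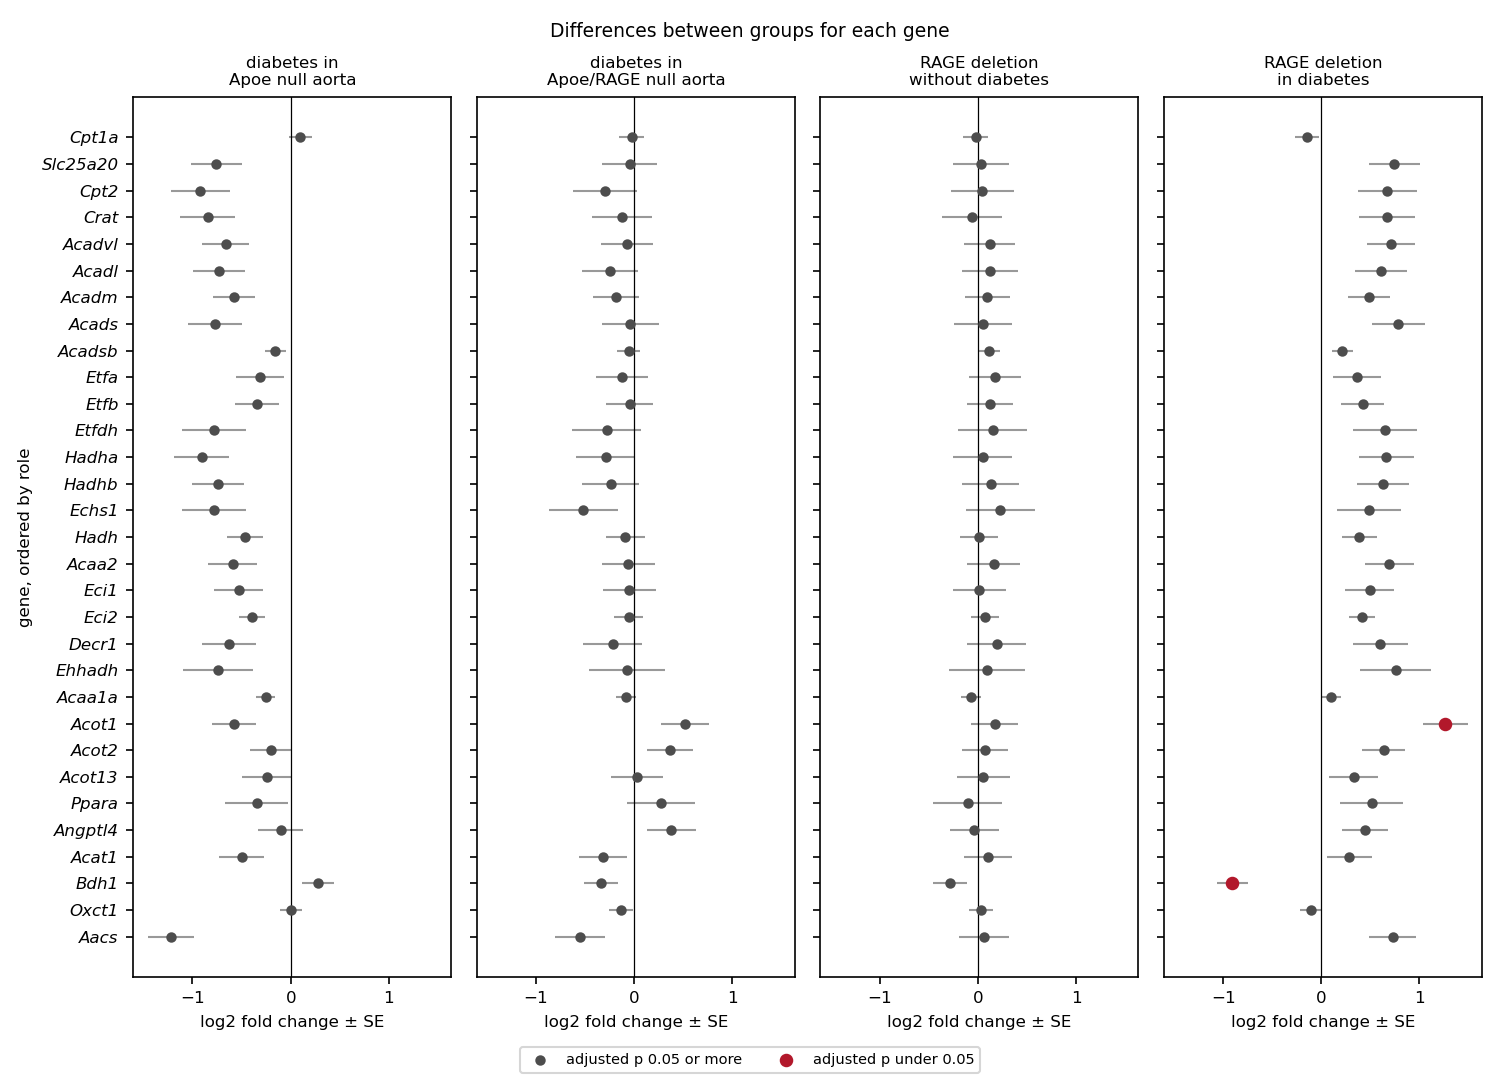
Log2 fold change of each of the 31 genes in 4 comparisons, with the standard error of the limma fit as bars. In diabetic Apoe null aorta 28 genes lie left of 0, in diabetes with RAGE deletion 28 lie right of 0, and only Acot1 and Bdh1 (red) passed the adjusted test.

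Genes of fat cells and of the respiratory chain varied with these genes over the arrays. In diabetic Apoe null aorta 18 of 18 respiratory chain genes were lower, with a median log2 fold change of -0.43, as were 9 of 9 white adipocyte genes (-0.64) and 8 of 10 brown adipocyte genes (-0.90). Of the defining brown adipocyte genes, Ucp1 and Cidea averaged 10.94 and 10.84 in diabetic Apoe null aortas, against 12.00 and 11.79 in non-diabetic ones. Dio2 went the other way, with 9.18 against 8.91. Ordered by the median deviation, the 9 lowest arrays stood in the same order for brown adipocyte genes as for the fatty acid oxidation and ketone genes, from diabetic Apoe null replicate 3 upward. The 5 lowest were the same arrays also for white adipocyte and respiratory chain genes. The summed level of the 10 brown adipocyte genes on the linear scale spanned 9848 to 21550 in diabetic Apoe/RAGE null and 12785 to 20762 in non-diabetic Apoe/RAGE null arrays. It spanned 7083 to 16550 in diabetic Apoe null and 14026 to 19394 in non-diabetic Apoe null arrays. The sum of the 9 white adipocyte genes spanned 12188 to 21317 in diabetic Apoe/RAGE null and 15169 to 19867 in non-diabetic Apoe/RAGE null arrays, and 10472 to 17106 in diabetic Apoe null and 16740 to 18428 in non-diabetic Apoe null arrays. Of the defining white adipocyte genes Lep was dim (3.10 to 5.52), whereas Adipoq, which encodes adiponectin, was bright (11.4 to 12.3). The lowest array in both sums was a diabetic Apoe null one. The part of these lists in the differences was not tested.

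Skeletal muscle genes did not follow the same order, sharing 1 of the 5 lowest arrays. All 13 were higher in diabetic aortas of both genotypes, by a median of 1.18 in Apoe null and 3.93 in Apoe/RAGE null aortas. Their summed level spanned 4499 to 11581 in diabetic Apoe/RAGE null, 357 to 1559 in non-diabetic Apoe/RAGE null, 604 to 5653 in diabetic Apoe null and 381 to 6624 in non-diabetic Apoe null arrays. Their part in the values was not tested either. Hepatocyte genes had a median log2 fold change of 0.02 with diabetes in Apoe null aorta. Cardiac muscle genes had a median of -0.06 there, with 5 of 9 lower and 4 higher. Their summed level spanned 1975 to 5310 in diabetic Apoe/RAGE null and 759 to 3940 in non-diabetic Apoe/RAGE null arrays. It spanned 1175 to 3502 in diabetic Apoe null and 537 to 24386 in non-diabetic Apoe null arrays. The part of cardiac muscle genes in the values was not tested.

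**Figure D3:**
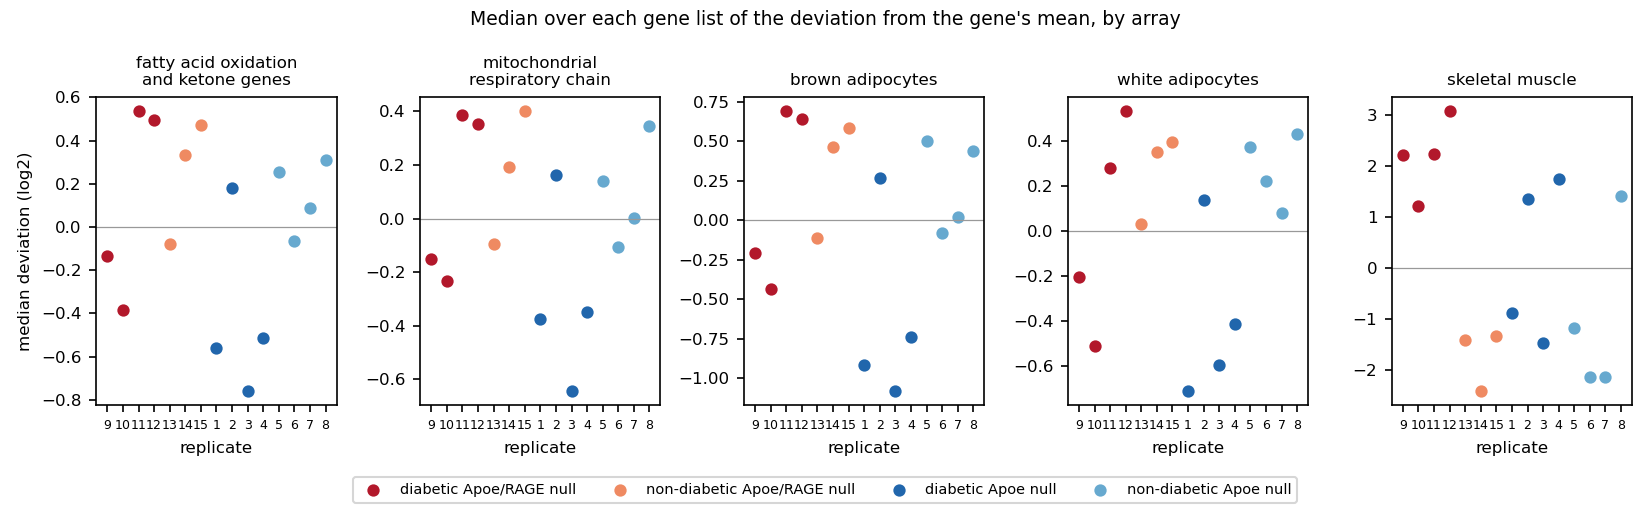
Median deviation (log2) over the genes of each list from the gene's own mean, for each of the 15 arrays, coloured by group. The first 3 panels share their 5 lowest arrays (replicates 1, 3, 4, 9 and 10), as does the white adipocyte panel. Skeletal muscle genes differ, being high in all 4 diabetic Apoe/RAGE null arrays. Apoe null replicates 2, 4 and 8 are high there too, above replicate 10.

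The next comparison set diabetic Apoe/RAGE null aortas against diabetic Apoe null aortas. In the Apoe/RAGE null group the thioesterase gene Acot1 was higher and the ketone body gene Bdh1 lower. Most of the other genes were higher on average without passing the test. Fold changes were positive for 28 of the 31 genes, with a median of 0.51 beside -0.00 over all genes. The 2 genes that passed limma stand against 0.244% of all probe sets. At an unadjusted p under 0.05, 16 genes were higher, where 6.62% of all genes were, and 1 was lower, where 2055 of 18193 genes were. The count of 1 of 31 is below that share and is no result about the list. Over all genes limma called 52 lower and 5 higher. This comparison shares the 4 diabetic Apoe null arrays with the first one, so low values there enter both with opposite sign.

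Acot1 encodes a cytosolic thioesterase that cleaves long-chain acyl-CoA and is a known PPAR alpha target in liver. Its level was 4.88, 5.10, 6.04 and 5.42 in diabetic Apoe/RAGE null aortas, against 3.90, 4.40, 3.72 and 4.37 in diabetic Apoe null aortas. All of the first were higher than all of the second, which held for 1.86% of all genes, and replicates 9 and 10 were high here too. The gene was higher by 1.26 ± 0.23 (log2, SE), 2.40-fold, with an adjusted p of 0.0432 in limma. Over the fits that left out 1 array the change was 1.04 to 1.42, with an adjusted p between 0.0231 and 0.162, and it passed in the 5 that left out replicate 2, 5, 7, 8 or 9. Without replicates 9 and 10 together it was 1.63, with an adjusted p of 0.0235. The single probe set is dim, with a mean of 4.74 close to the array medians.

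Acot1 lies beside close relatives with near-identical coding sequence, and a probe set for one can take up RNA of another. Acot2, the nearest relative in the list, read 8.11, 8.12, 8.94 and 8.19 in diabetic Apoe/RAGE null aortas, against 7.43, 8.13, 7.35 and 7.90 in diabetic Apoe null aortas. Replicate 2 of the diabetic Apoe null group lay inside the range of the other group, and replicate 11 was the highest array for both genes. Acot2 had a log2 fold change of 0.64 ± 0.22 (SE), with an adjusted p of 0.188 in limma. It was 0.86 ± 0.26 when replicates 9 and 10 were left out (adjusted p of 0.143 in limma). Its second, dim probe set gave 0.40 ± 0.19 with all arrays, and Acot13 gave 0.33 ± 0.25.

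Bdh1 encodes the mitochondrial enzyme that interconverts acetoacetate and hydroxybutyrate. Its level was 5.50, 5.93, 6.07 and 6.13 in diabetic Apoe/RAGE null aortas, against 6.64, 6.59, 7.11 and 6.90 in diabetic Apoe null aortas. The groups did not overlap, with the RAGE null arrays lower, which held for 5.86% of all genes. The gene was lower by 0.90 ± 0.16 (log2, SE), 1.87-fold, with an adjusted p of 0.0432 in limma. Over the fits that left out 1 array the change was -0.98 to -0.77, with an adjusted p between 0.0228 and 0.162, and it passed in the 4 that left out replicate 2, 5, 7 or 8. Without replicates 9 and 10 together it was -0.71, with an adjusted p of 0.110, which ends the call. Its other probe set, with a mean of 2.86, gave -0.57 ± 0.24.

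**Figure D4:**
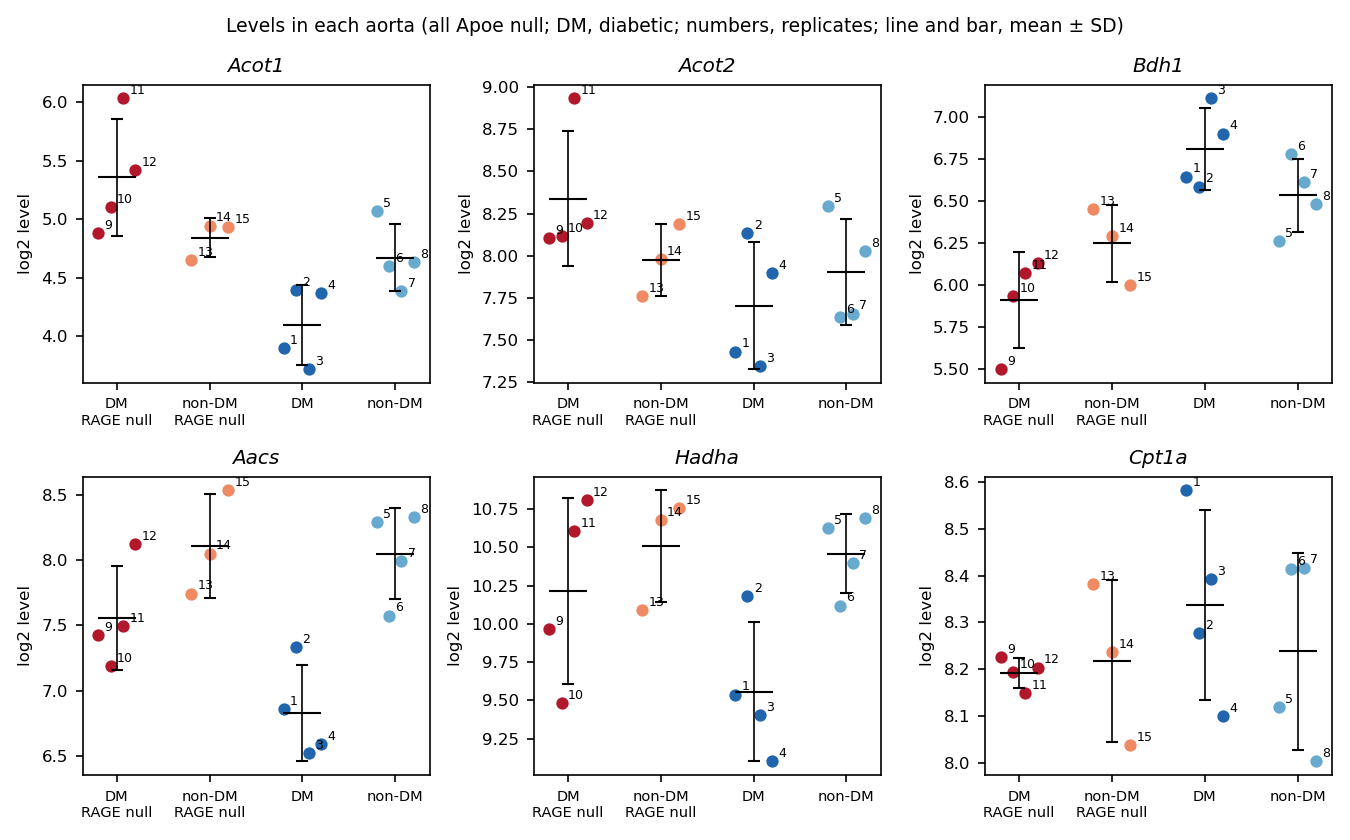
Log2 level of 6 genes on each array, with the replicate number beside the point and the group mean ± SD as line and bar. Acot1 is higher and Bdh1 lower in all 4 diabetic Apoe/RAGE null arrays than in the 4 diabetic Apoe null arrays, and Hadha shows the split of both diabetic groups that most genes share.

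The next smallest p in this comparison was that of Eci2, an isomerase for unsaturated chains, which read 8.78, 8.60, 9.06 and 9.16 in diabetic Apoe/RAGE null aortas, against 8.38, 8.79, 8.37 and 8.42 in diabetic Apoe null aortas. Replicates 11 and 12 were above all diabetic Apoe null arrays, and replicates 9 and 10 were not above replicate 2 of that group. The log2 fold change was 0.41 ± 0.13 (SE), with an adjusted p of 0.170 in limma, and 0.62 ± 0.14 without replicates 9 and 10 (adjusted p of 0.105 in limma). Aacs read 7.42, 7.19, 7.49 and 8.12 in diabetic Apoe/RAGE null aortas, and its fold change over the diabetic Apoe null arrays given above was 0.73 ± 0.24 (adjusted p of 0.171 in limma), or 0.98 ± 0.28 without replicates 9 and 10 (adjusted p of 0.133 in limma).

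Within the steps, positive fold changes were found for all 5 acyl-CoA dehydrogenases, with 4 at an unadjusted p under 0.05. The largest of them were 0.79 ± 0.27 for Acads and 0.71 ± 0.24 for Acadvl, and Acadsb had 0.22 ± 0.11. The 5 enzymes of hydration, the second oxidation and thiolysis had 0.39 to 0.69, of which Hadha had 0.66 ± 0.28 and Acaa2 0.69 ± 0.25. In the carnitine shuttle Slc25a20 had 0.74 ± 0.26, Cpt2 0.67 ± 0.30 and Crat 0.67 ± 0.28, whereas Cpt1a had -0.15 ± 0.12. Ehhadh had 0.76 ± 0.36, Acaa1a 0.10 ± 0.09, Ppara 0.51 ± 0.32 and Angptl4 0.44 ± 0.23. The electron transfer genes had 0.36 to 0.65, and of the remaining ketone body genes Acat1 had 0.29 ± 0.23 and Oxct1 -0.10 ± 0.11.

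These counts turn on which arrays are used, and so do those over all genes. Replicates 9 and 10 lay below 11 and 12 for 29 of the 31 genes, so leaving them out raises the group mean of those genes. Without replicates 9 and 10, 29 of the 31 genes were positive, with a median of 0.87, beside -0.01 over all genes, and a range of -0.71 to 1.63. At an unadjusted p under 0.05 there were then 29 of the 31, where 21.0% of all genes passed. Groups did not overlap for 26 of the 31, where this held for 28.0% of all genes, so both shares over all genes were also larger than with all arrays. Limma called 1 gene of the list (Acot1) and 22 probe sets in all, 0.0488%. Among the single genes Hadha then had 1.15 ± 0.26, Cpt2 1.22 ± 0.29 and Acads 1.22 ± 0.28 (log2, SE), each with an adjusted p of 0.105 in limma.

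Leaving out single arrays, the count at an unadjusted p under 0.05 of 17 was 26 without replicate 2 or 10, 8 without replicate 3 or 11 and 9 without replicate 1, 4 or 12. In these fits 22.0% and 18.5% (without 2 and 10), 11.7% and 14.2% (without 3 and 11) and 13.1%, 16.1% and 17.6% (without 1, 4 and 12) of all genes passed. The number called was 4 without replicate 2, where 2.07% of all probe sets were called, 1 without replicate 9, 2 without replicate 5, 7 or 8 and 0 without any other. The count of groups that did not overlap, 2 in all, was 18 without replicate 2, where this held for 17.6% of all genes, and 5 without replicate 10, where it held for 12.5%. The count of 5 of 31 is near that share and is no result about these genes.

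Skeletal muscle genes (13 of 13 higher, median 2.01), brown adipocyte genes (8 of 10, median 0.76), respiratory chain genes (18 of 18, median 0.40) and white adipocyte genes (9 of 9, median 0.34) were higher as well with RAGE deletion in diabetes. The medians when replicates 9 and 10 were left out were 2.39 (13 of 13 higher), 1.34 (9 of 10), 0.66 (18 of 18) and 0.68 (9 of 9) in the same order of lists. Their part in the result was not tested.

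In Apoe/RAGE null aorta no gene of the list passed the test of diabetes. Of the 31 genes 26 were lower, with a median log2 fold change of -0.09 beside -0.02 over all genes. The count called by limma was 0, where 0% of all probe sets passed, and 1 had an unadjusted p under 0.05, where 7.71% of all genes did. The count of 1 of 31 is below that share and is no result about the list. The gene with that p was Aacs, which read 7.42, 7.19, 7.49 and 8.12 in diabetic Apoe/RAGE null aortas, against 7.74, 8.05 and 8.53 in non-diabetic Apoe/RAGE null aortas. Replicates 9, 10 and 11 were below the non-diabetic arrays and replicate 12 was between them. Its log2 fold change was -0.55 ± 0.26 (SE), with an adjusted p of 0.687 in limma, and -0.30 ± 0.30 without replicates 9 and 10.

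The thioesterases and regulators had the opposite sign. Acot1 read 4.88, 5.10, 6.04 and 5.42 in diabetic Apoe/RAGE null aortas, against 4.65, 4.95 and 4.93 in non-diabetic Apoe/RAGE null aortas. Replicate 9 lay among the non-diabetic arrays and the other 3 diabetic arrays above them. The log2 fold change was 0.52 ± 0.24 (SE), with an adjusted p of 0.689 in limma, and 0.88 ± 0.24 without replicates 9 and 10 (adjusted p of 0.999 in limma). Acot2 had 0.36 ± 0.23, Angptl4 0.38 ± 0.25, Ppara 0.27 ± 0.35 and Acot13 0.03 ± 0.27. Bdh1 read 5.50, 5.93, 6.07 and 6.13 in diabetic Apoe/RAGE null aortas, against 6.45, 6.29 and 6.00 in non-diabetic Apoe/RAGE null aortas, a log2 fold change of -0.34 ± 0.17 with groups that overlap, and of -0.15 ± 0.18 without replicates 9 and 10.

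The oxidation enzymes ranged from -0.52 ± 0.35 for Echs1 to -0.03 ± 0.13 for Cpt1a, with -0.29 ± 0.30 for Hadha and -0.30 ± 0.32 for Cpt2. For 18 of the 31 genes replicates 9 and 10 were both below the lowest non-diabetic Apoe/RAGE null array. Without these replicates 28 of the 31 genes were positive, with a median of 0.25 beside -0.01 over all genes, and 0 were called by limma. Groups then did not overlap for 9 of the 31, where this held for 19.5% of all genes, and 1 gene, Acot1, had an unadjusted p under 0.05, where 4.24% of all genes did. The count of 1 of 31 is near that share and is no result about these genes. The median was 0.06 without replicate 10 alone, and -0.04 without 9, -0.20 without 11, -0.19 without 12, -0.26 without 13, -0.05 without 14 and -0.03 without 15. Its sign thus depended on single arrays. Brown adipocyte genes (6 of 10 lower, median -0.16) and respiratory chain genes (14 of 18 lower, median -0.09) had small differences in the same direction, and macrophage genes (7 of 7 higher, median 0.55) the other. When replicates 9 and 10 were left out, brown adipocyte genes were higher for 9 of 10 (median 0.29), respiratory chain genes for 18 of 18 (0.19), macrophage genes for 7 of 7 (0.43) and skeletal muscle genes for 13 of 13 (4.54). Their part was not tested.

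Without diabetes no gene of the list passed the test of RAGE deletion. Of the 31 genes 25 were higher in Apoe/RAGE null aorta, with a median log2 fold change of 0.07 beside 0.00 over all genes and a range of -0.29 to 0.23. Limma called 0, where 0% of all probe sets passed, and 0 had an unadjusted p under 0.05, where 2.62% of all genes did. Bdh1 had the smallest p, and read 6.45, 6.29 and 6.00 in non-diabetic Apoe/RAGE null aortas, against 6.26, 6.78, 6.61 and 6.48 in non-diabetic Apoe null aortas. The groups overlap, and the log2 fold change was -0.29 ± 0.17 (SE). Acadsb read 8.91, 9.08 and 9.08 in non-diabetic Apoe/RAGE null aortas, against 8.83, 8.82, 8.92 and 9.05 in non-diabetic Apoe null aortas (0.12 ± 0.11). Acot1 read 4.65, 4.95 and 4.93 in non-diabetic Apoe/RAGE null aortas, against 5.07, 4.60, 4.39 and 4.63 in non-diabetic Apoe null aortas (0.17 ± 0.24), and the groups of both genes overlap. The median was -0.02 without replicate 15, 0.03 without 6, 0.04 without 7, 0.15 without 8 and 0.26 without 13, and 0 groups did not overlap with all arrays. Without replicate 13 this count was 11 of the 31, where the groups did not overlap for 12.6% of all genes.

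Whether diabetes differed in its relation to these genes between the genotypes was tested as an interaction, the log2 fold change with diabetes in Apoe/RAGE null aorta minus that in Apoe null aorta. It was positive for 28 of the 31 genes, with a median of 0.48. None passed limma, where 0% of all probe sets passed, and 2 had an unadjusted p under 0.05, where 8.57% of all genes did. These were Acot1 (1.09 ± 0.33 SE) and Bdh1 (-0.62 ± 0.24), both with an adjusted p of 0.675 in limma. The count of 2 of 31 is near the share of all genes and is no result about the list. Aacs had 0.67 ± 0.35. Among the oxidation enzymes the values were 0.61 ± 0.41 for Hadha, 0.62 ± 0.44 for Cpt2 and 0.73 ± 0.40 for Acads, each less than 2 standard errors from 0. Without replicates 9 and 10 the interaction was positive for 29 genes, with a median of 0.88 beside -0.00 over all genes. Of the 31 genes 23 were then positive at an unadjusted p under 0.05, where 5.31% of all genes were, and 0 passed limma. Since replicates 9 and 10 lay below 11 and 12 for 29 genes, leaving them out by itself moves those genes upward. Acot1 had 1.46 ± 0.31, Hadha 1.10 ± 0.35, Aacs 0.92 ± 0.38 and Bdh1 -0.43 ± 0.23 in that fit. The count of 2 was 16 without replicate 2 (12.1% of all genes), 10 without replicate 10 (9.01%) and 1 without replicate 13 (5.67%), and the median was 0.27 without replicate 13.

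Other genes of the pathway gave a like picture. Of 48 listed genes of fatty acid uptake, activation, further oxidation steps, ketogenesis and their regulators, 44 were measured. In diabetic Apoe null aorta 38 of the 44 were lower, with a median log2 fold change of -0.42. At an unadjusted p under 0.05, 16 were lower, where 5.94% of all genes were, and 1 was higher, where 1322 of 18193 genes were. Limma called 0, where 0% of all probe sets passed. The smallest p was that of Acot11, a thioesterase of brown fat, with 8.18, 8.28, 8.17 and 8.22 in diabetic Apoe null aortas, against 9.68, 8.59, 8.76 and 8.97 in non-diabetic Apoe null aortas. All 4 diabetic arrays, replicate 2 included, lay below the non-diabetic ones, and the log2 fold change was -0.79 ± 0.21 (SE). Plin5, a lipid droplet protein that tethers droplets to mitochondria, did not overlap between the groups either (7.76 to 9.01 in diabetic and 9.10 to 10.29 in non-diabetic Apoe null aortas, -1.21 ± 0.33). Ivd, a dehydrogenase of leucine breakdown, had -0.70 ± 0.19.

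With RAGE deletion in diabetes 37 of the 44 were higher, with a median of 0.38. At an unadjusted p under 0.05, 13 were higher, where 6.62% of all genes were, and 0 passed limma, where 0.244% of all probe sets did. Without replicates 9 and 10, 41 were higher, with a median of 0.66, and 30 had an unadjusted p under 0.05, where 21.0% of all genes did. Limma then called 1, Decr2, where 0.0488% of all probe sets passed. It is the gene by which those replicates stood apart, so this call is no finding. With all arrays, the genes with the smallest p were Hsd17b4, the peroxisomal multifunctional enzyme (0.57 ± 0.17, SE), Mlycd, which removes malonyl-CoA, an inhibitor of fatty acid entry (0.59 ± 0.20), and Hsd17b10, a mitochondrial dehydrogenase of branched and short chains (0.52 ± 0.17). Leaving out replicates 9 and 10, they had 0.74 ± 0.20, 0.95 ± 0.18 and 0.49 ± 0.23 in the same order. With diabetes in Apoe/RAGE null aorta they were Acsl6, a ligase that activates fatty acids (-0.28 ± 0.13), Hsd17b10 (0.38 ± 0.19) and Acot11 (-0.45 ± 0.23), and 0 passed. Of the 44 genes 28 were lower there, with a median of -0.08, whereas without replicates 9 and 10, 35 were higher, with a median of 0.16, and these 3 genes had -0.16 ± 0.15, 0.36 ± 0.24 and -0.23 ± 0.26. With RAGE deletion without diabetes they were Decr2 (1.06 ± 0.49), Acox3, a peroxisomal oxidase (-0.18 ± 0.08), and Acot7, a thioesterase (0.41 ± 0.25), and 0 passed. In the interaction they were Acot9, a mitochondrial thioesterase (-0.37 ± 0.14), Mlycd (0.72 ± 0.29) and Scp2, which holds a peroxisomal thiolase (0.44 ± 0.19), and 0 passed. The interaction was positive for 33 of the 44, with a median of 0.32, and without replicates 9 and 10 for 40, with a median of 0.57, and these 3 genes then had -0.29 ± 0.16, 1.08 ± 0.24 and 0.49 ± 0.22.

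Of the 31 genes 18 had more than 1 probe set, with 28 further probe sets. These had the same sign as the one used in 24 of 28 with diabetes in Apoe null aorta and in 24 of 28 with RAGE deletion in diabetes, and 0 of them passed limma. Among the 19 with a mean of at least 5 the counts were 17 and 16.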

How the data were processed

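The deposited values are on the log2 scale and came from RMA, run by the authors, per the submitters' processing notes; which of the 15 arrays RMA took together is not given in the sources used here. The values were used as deposited. Of 45101 rows 64 control probe sets were left out, and of the 45037 tested 34945 carried 1 gene, 932 several and 9160 none named here, from an array annotation of 2016. Groups came from the labels. Differences were fitted by limma 3.58.1 (R 4.3.3) on all 15 arrays with a mean for each group and eBayes, and p-values were adjusted by Benjamini-Hochberg over every probe set, with calls at 0.05. P-values reflect the spread between mice as labelled. The replicate numbers run over the whole series and pair no mice.

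The genes and lists were chosen with earlier results of these data known, so counts and medians are given without list tests. Values of every array are printed for the 3 genes with the smallest p in each comparison and for those that passed, and for Acot2, chosen after its values were seen. Of other pathway genes the 3 with the smallest p are named. Marker genes were named only from among the first 3 of a list, and not for every list. The fit was tested on simulated data. Alternatives were the submitters' B above 0, only the compared groups, dim probe sets (mean under 5) left out, array weights, a trended robust variance, median centring, quantile normalization, fitting 1 probe set per gene, the mean of a gene's probe sets, replicates 9 and 10 left out, and each array left out. Promoter sequences are from RefSeq (GRCm38.p6). Python 3.11.15 and matplotlib 3.10.9 made the figures.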

Additional observations from a re-analysis of the deposited data

Results flagged for a closer look

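Of 93 groups of 4 arrays tested for 1 array far from the others, 5 held one, and chance alone gives about 1 in 20. In the diabetic Apoe null group replicate 2 stood above the others in Cpt2 (9.80, the others 8.72 to 8.88), Acads (8.08, the others 7.15 to 7.28) and Eci2 (8.79, the others 8.37 to 8.42). In the non-diabetic Apoe null group replicate 5 stood above the others in Ehhadh (8.41, the others 7.85 to 7.91). In the diabetic Apoe/RAGE null group replicate 11 stood above the others in Acot2 (8.94, the others 8.11 to 8.19).

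For 2 of the 31 genes the log2 fold change with diabetes differed between the genotypes at an unadjusted p under 0.05 in limma's interaction test. This held for 8.57% of all genes, so the count is near that share and is no result about the list. Acot1 had 1.09 (fold change in Apoe/RAGE null minus that in Apoe null aorta, unadjusted p of 0.00515 and adjusted p of 0.675), and Bdh1 had -0.62 (unadjusted p of 0.0203 and adjusted p of 0.675).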

How the results depend on the processing

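No paired analysis was possible because the groups share no replicate numbers. Neither called gene changed sign in any alternative run. The median with diabetes in Apoe/RAGE null aorta, -0.09, was 0.25 without replicates 9 and 10 and 0.06 without replicate 10, and that of RAGE deletion without diabetes, 0.07, was -0.02 without replicate 15. With B above 0 in place of the adjusted p, 1 gene was called with diabetes in Apoe null aorta, where 43 of 18193 genes were. With RAGE deletion in diabetes, 0 genes were called with only the compared groups in the fit (9 at an unadjusted p under 0.05), and 1 with dim probe sets left out, which removes Acot1, with array weights, with the mean of a gene's probe sets, and without replicates 9 and 10. Without these 2 arrays 29 genes had an unadjusted p under 0.05 (21.0% of all genes), the median was 0.87 and 26 had groups that did not overlap (28.0% of all genes). In the interaction 23 were then positive at an unadjusted p under 0.05 (5.31% of all genes), with a median of 0.88, and with diabetes in Apoe/RAGE null aorta 9 had groups that did not overlap (19.5% of all genes). In that comparison the count of 1 at an unadjusted p under 0.05 was 0 with only the compared groups, dim probe sets left out, quantile normalization, 1 probe set per gene or the mean of probe sets, and 2 with a trended robust variance or array weights. It was 1 with array weights for RAGE deletion without diabetes and 1 with dim probe sets left out for the interaction. A count here without a share of all genes beside it is no result about the list. The cause was not tested.

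Leaving out 1 array at a time, genes called with RAGE deletion in diabetes numbered 0 to 4, where 0% to 2.07% of all probe sets were called. In the other comparisons they numbered 0, where at most 0.109% of all probe sets were called. Counts at an unadjusted p under 0.05 were 7 to 23 (diabetes in Apoe null), 0 to 4 (diabetes in Apoe/RAGE null), 0 (RAGE deletion without diabetes), 8 to 26 (RAGE deletion in diabetes) and 1 to 16 (interaction). The shares of all genes were 7.68% to 16.9%, 4.7% to 14.8%, 2.08% to 3.2%, 11.7% to 22% and 5.67% to 12.1% in that order. The counts for diabetes in Apoe/RAGE null aorta are near those shares and are no result about the list. Counts of groups that did not overlap were 2 to 24, 0 to 4, 0 to 11 and 2 to 18 in the same order of comparisons, where the highest shares of all genes were 18.9%, 18.4%, 12.6% and 17.6%. The number of arrays, and for Acot1 a level near the array medians, limit these values.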
